A study of Mus musculus with 12 samples.

Results

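Hearts labelled Pde10a knockout (KO) and given vehicle were compared with wild-type (WT) hearts given vehicle, across all genes that passed a count filter. These 2 groups hold 6 of the 12 libraries in the study, and they were taken by their titles, 3 libraries titled as KO with vehicle and 3 titled as WT with vehicle. The study sequenced polyadenylated RNA from mouse hearts to ask how doxorubicin (DOX), an anthracycline cancer drug that damages the heart, and the phosphodiesterase PDE10A shape the cardiac transcriptome. The vehicle comparison addresses the genotype alone, with no DOX given. All mice are labelled C57BL/6J, and the protocol text allows either sex. The KO vehicle group holds mice veh_3393, veh_3394 and veh_3395, labelled PDE10A knockout and vehicle, and the WT vehicle group holds mice veh_1, veh_2 and veh_3, labelled PDE10A wild type and vehicle. The other 6 libraries, KO DOX with mice Dox_18, Dox_19 and Dox_20 and WT DOX with mice Dox_21, Dox_22 and Dox_24, came from mice given 1 bolus of DOX at 15 mg/kg and followed for 7 days, and they served as a second, non-overlapping pair of genotype groups. The labels give no age, no sex for a single mouse, no hour of collection and no exon removed in the knockout. They do not state whether KO and WT mice were littermates. The number range of the KO vehicle mice differs from that of every other group.

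PDE10A is a dual-specificity phosphodiesterase that hydrolyses the second messengers cAMP and cGMP, and it is best known from the striatum of the brain. In the heart, cAMP made by adenylyl cyclases drives protein kinase A, which phosphorylates calcium channels and the ryanodine receptor, and phosphodiesterases limit how far and how long that signal spreads. The heart also runs a circadian clock in which ARNTL (BMAL1) and CLOCK switch on the Per, Cry and Nr1d repressors, and the repressors in turn hold ARNTL and CLOCK down.

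The 6 vehicle libraries held between 23918499 and 27515055 counts. The defining cardiomyocyte genes were abundant in each library, with no marker of the 8 below 571 CPM, the count relative to the TMM-scaled library total. Xist was at or below 0.24 CPM and the Y-linked Ddx3y at or above 24.6 CPM in all 12 libraries, the levels of male tissue. Libraries stood apart in 2 ways. WT veh_2 had 19.5% of its counts on mitochondrially encoded genes, against 28.7% to 33.6% in the other 5 vehicle libraries, and it was the lowest library on the first principal component. KO veh_3394 carried atrial transcripts, with the atrial myosin light chain Myl7 at 542 CPM, against at most 14 CPM in the other 5. No 2 libraries agreed within sampling noise: the lowest chi-square per gene of any pair was 8.32. The labels name separate mice, so the p-values measure the spread between animals.

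Pde10a itself was higher in the libraries labelled KO. Its level was 9.31, 11.9 and 9.13 CPM in the KO vehicle libraries veh_3393, veh_3394 and veh_3395, against 3.38, 1.0 and 1.86 CPM in the WT vehicle libraries veh_1, veh_2 and veh_3. Each of the libraries labelled KO lay above each WT library, and the log2 fold change was 2.30 ± 0.32 (SE), with an adjusted p of 0.0047 from edgeR's quasi-likelihood test with Benjamini-Hochberg adjustment. The direction thus goes against a loss of transcript, and a count over the whole gene cannot show which exons were transcribed. KO and WT therefore stand for the genotype of the labels throughout, and each direction below rests on them. The call for Pde10a held under every alternative run (edgeR adjusted p at most 0.0387).

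Of 14757 genes tested, 425 (2.88%) were called, meaning that their edgeR adjusted p was below 0.05. Of these, 264 (1.79% of all tested) were higher and 161 (1.09%) were lower in KO vehicle hearts. This split between directions depended on the processing: 793 genes were called higher and 889 lower with DESeq2, 304 and 120 without TMM scaling, 51 and 58 without WT veh_2, and 18 and 21 without KO veh_3394, WT veh_2 and KO Dox_18 together. Genes called higher had a median log2 fold change of 0.72 and genes called lower one of -0.73, while the median absolute value over all genes was 0.24, and 78 genes called higher and 48 called lower differed at least 2-fold. Over all genes the signed median was 0.02. The groups did not overlap for 4625 genes (31.3%), and 3844 (26.0%) had an unadjusted p below 0.05. All 264 genes called higher and all 161 called lower were without overlap. Separation of the groups in a called gene, given below, therefore adds no support to its call. The number called depended strongly on single libraries: it was 42, 52 and 45 without KO veh_3393, veh_3394 and veh_3395, and 2670, 109 and 51 without WT veh_1, veh_2 and veh_3. Of the 63 called genes among the 88 reported here that a fixed rule named, 13, 15 and 16 remained called without KO veh_3393, veh_3394 and veh_3395, and 63, 32 and 19 without WT veh_1, veh_2 and veh_3. The 12 whose call held whichever vehicle library was left out were Pde10a, Wee1, Wdfy1, Arntl, Col5a3, Tmem181a, Kcnh2, Hlf, Slc41a3, Nnt, Rhobtb1 and Gsta3. Without KO veh_3394, WT veh_2 and KO Dox_18, a choice made after seeing the data, 39 genes were called.

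Among the called genes were 2 clock activators, Arntl and Clock, both lower, and 3 clock repressors, all higher. The part of the hour of collection, which the labels do not give, was not tested for any clock gene. Arntl, which encodes the clock's central activator BMAL1, stood at 0.95, 1.06 and 1.92 CPM in KO vehicle hearts, against 13.1, 13 and 8.57 CPM in WT vehicle hearts, and fell by 3.15 on the log2 scale (SE 0.41, edgeR adjusted p = 0.00339). Clock, its partner, was at 23.3, 25.5 and 24.2 CPM in KO vehicle hearts, against 40.9, 33.8 and 36 CPM in WT vehicle hearts (log2 fold change -0.60 ± 0.11 (SE), edgeR adjusted p = 0.0192). Npas2, which can take the place of Clock, had 2.2, 1.66 and 2.09 CPM in KO vehicle hearts, against 4.14, 3.25 and 3.21 CPM in WT vehicle hearts, a log2 fold change of -0.83 ± 0.25 (SE) that missed the threshold (edgeR adjusted p = 0.0721). In these 3 activators every KO vehicle library lay below every WT vehicle library. Rora, a nuclear receptor that activates Arntl, lay the other way, with 29.2, 30.0 and 31.4 CPM in KO vehicle hearts, against 25.6, 18.3 and 21.9 CPM in WT vehicle hearts, and missed the threshold (log2 fold change 0.46 ± 0.16 (SE), edgeR adjusted p = 0.102). Arntl2 (-0.04, edgeR adjusted p = 0.932) and Rorb (0.03, 0.976) missed it as well. Of the 7 clock activator genes in the list, 0 were called higher and 2 lower (28.6%, against 1.09% of all tested genes). Positive values numbered 3 and negative ones 4, with a median log2 fold change of -0.04. That median lay between -0.47 and 0.06 with 1 vehicle library left out, the positive value being the one without KO veh_3393. The Arntl call held without each vehicle library and was lost without KO veh_3394, WT veh_2 and KO Dox_18 together (edgeR adjusted p = 0.0619), and the Clock call was lost without any KO vehicle library or WT veh_3 (edgeR adjusted p up to 0.0898).

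On the repressor side 3 genes were called, all higher. Per3, a period repressor, had 47.4, 53.1 and 56.6 CPM in KO vehicle hearts, against 28.8, 16.4 and 24.3 CPM in WT vehicle hearts (log2 fold change 1.18 ± 0.21 (SE), edgeR adjusted p = 0.0193). Per2 had 46.3, 40.9 and 51.2 CPM in KO vehicle hearts, against 18.4, 7.46 and 24.4 CPM in WT vehicle hearts (log2 fold change 1.47 ± 0.31 (SE), edgeR adjusted p = 0.0342). Cry1, a cryptochrome that blocks the CLOCK and BMAL1 pair, had 10.6, 10.6 and 13.6 CPM in KO vehicle hearts, against 6.63, 5.8 and 6.23 CPM in WT vehicle hearts (log2 fold change 0.89 ± 0.17 (SE), edgeR adjusted p = 0.0231). In these 3 genes the groups did not overlap, and WT veh_2 was the lowest of the 6 libraries. Of the 10 repressor genes, 3 were called higher (30.0%, against 1.79% of all tested genes) and 0 lower, and the list's median log2 fold change was 0.63, beside 0.02 over all genes. Cry2 (log2 0.66, edgeR adjusted p = 0.0568), Ciart (1.27, 0.0633), Bhlhe41 (0.52, 0.0746), Nr1d2 (0.36, 0.0998) and Per1 (0.60, 0.112) had positive values that missed the threshold, as did Bhlhe40 at 0.16 (0.356). Nr1d1, which encodes REV-ERB alpha, the repressor that binds the Arntl promoter, was the only repressor with a negative value, at 68.7, 82.4 and 57.8 CPM in KO vehicle hearts, against 146, 94.1 and 106 CPM in WT vehicle hearts (log2 fold change -0.73 ± 0.25 (SE), edgeR adjusted p = 0.0975). In 8 of the 10 repressors every KO vehicle library lay above every WT vehicle library, and in Nr1d1 below it (31.3% of all genes tested separated the groups). The 3 repressor calls were lost without each of KO veh_3393, veh_3394 and veh_3395, when 0 of the 10 were called, while the list's median stayed between 0.52 and 0.76 over the fits without 1 vehicle library.

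Of the 4 bZIP factors that carry the clock's phase to other genes, 2 were called, both higher (50%, against 1.79% of all tested genes). Hlf, a PAR bZIP factor, had 42.5, 44.4 and 48.8 CPM in KO vehicle hearts, against 19.9, 16.4 and 21.5 CPM in WT vehicle hearts (log2 fold change 1.23 ± 0.16 (SE), edgeR adjusted p = 0.0032). Tef, of the same family, had 239.7, 237 and 249 CPM in KO vehicle hearts, against 132, 95.9 and 129 CPM in WT vehicle hearts (log2 fold change 1.03 ± 0.17 (SE), edgeR adjusted p = 0.0144). The third member, Dbp, had 128, 133 and 109 CPM in KO vehicle hearts, against 73.2, 64.2 and 72.8 CPM in WT vehicle hearts, without overlap, yet missed the threshold (log2 fold change 0.82 ± 0.38 (SE), edgeR adjusted p = 0.191). Nfil3, which opposes these factors at the same sites, gave a log2 fold change of -0.16 ± 0.33 (SE) with an edgeR adjusted p of 0.79. Wee1, the kinase that holds back mitotic entry and a known clock output, had 21.5, 18.8 and 22.5 CPM in KO vehicle hearts, against 7.3, 5.35 and 8.69 CPM in WT vehicle hearts (log2 fold change 1.56 ± 0.16 (SE), edgeR adjusted p = 0.000947), and it was called under every alternative. Of the 22 further clock output genes listed, 2 were called higher (9.09%, against 1.79% of all tested genes) and 2 lower (9.09%, against 1.09%). Besides Wee1, Fmo2 (log2 1.28), a flavin monooxygenase, was higher, while Leo1 (log2 -0.79), of the PAF1 transcription complex, and Cdkn1a (log2 -1.36), the cell cycle inhibitor p21, were lower. The Tef call was lost without any KO vehicle library or WT veh_3 (edgeR adjusted p up to 0.0645), and the Hlf call held without each library. The calls of Leo1, Fmo2 and Cdkn1a were lost without any KO vehicle library. Those of Fmo2 and Cdkn1a were also lost without WT veh_2 or veh_3 and with the title suffix as a covariate. The Cdkn1a call was lost in the fit of 6 libraries too.

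**Figure D1:**
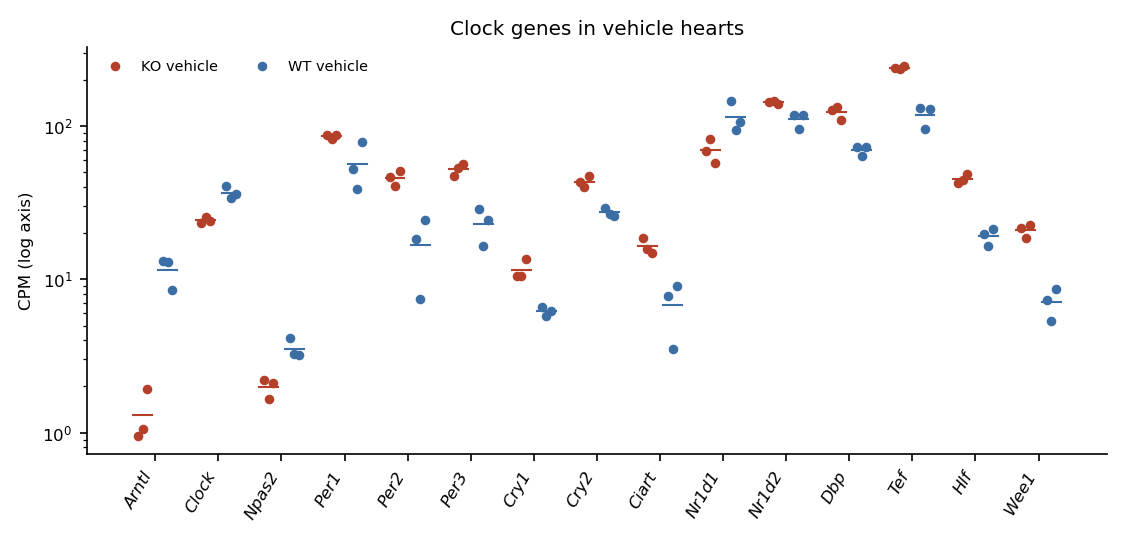
Levels of 15 clock genes in vehicle hearts as CPM on a log axis, with 1 point per library and a bar at the mean of the 3 libraries, KO vehicle in red on the left and WT vehicle in blue on the right of each gene. Arntl, Clock, Npas2 and Nr1d1 lie lower in KO vehicle hearts, and every other gene plotted lies higher with no overlap between the groups.

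The clock works through short sites in the promoters of its genes, and promoters are shown for the called clock genes in which a search found such a site. RefSeq promoter windows on GRCm38.p6 were found for 6 of the 8 called genes searched (Arntl, Clock, Per3, Cry1, Tef and Hlf), and the 250 bases before each transcription start were searched on both strands for the E-box CACGTG, the D-box TTATGNAA and the REV-ERB and ROR element TAGGTCA, none of which overlapped another match in the sequences shown. The E-box is bound by CLOCK and BMAL1, the D-box by the HLF, TEF and DBP family and by NFIL3. Of 32851 promoter windows of the same length, 6.02% held CACGTG, 3.07% held TTATGNAA and 2.23% held TAGGTCA. Capitals mark the matches in the windows of Per3 (chr4:151044666-151044915, minus strand, D-box), Cry1 (chr10:85185055-85185304, minus strand, E-box) and the 2 starts of Tef (chr15:81802423-81802672 and chr15:81811164-81811413, plus strand, E-box), each written from 5′ to 3′:
Per3: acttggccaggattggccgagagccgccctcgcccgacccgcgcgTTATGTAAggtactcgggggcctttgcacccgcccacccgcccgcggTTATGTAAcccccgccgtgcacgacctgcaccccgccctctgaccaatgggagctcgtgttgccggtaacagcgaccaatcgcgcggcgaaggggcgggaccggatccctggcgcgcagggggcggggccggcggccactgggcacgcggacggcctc
Cry1: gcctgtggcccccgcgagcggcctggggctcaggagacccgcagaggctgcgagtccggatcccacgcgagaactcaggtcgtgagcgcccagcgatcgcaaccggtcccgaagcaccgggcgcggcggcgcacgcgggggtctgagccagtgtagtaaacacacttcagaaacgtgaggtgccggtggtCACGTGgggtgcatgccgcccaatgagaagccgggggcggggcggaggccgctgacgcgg
Tef start 1: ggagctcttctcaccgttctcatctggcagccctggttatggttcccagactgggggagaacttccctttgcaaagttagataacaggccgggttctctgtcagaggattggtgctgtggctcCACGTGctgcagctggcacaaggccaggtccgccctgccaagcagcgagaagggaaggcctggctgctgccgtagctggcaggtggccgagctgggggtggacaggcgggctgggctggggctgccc
Tef start 2: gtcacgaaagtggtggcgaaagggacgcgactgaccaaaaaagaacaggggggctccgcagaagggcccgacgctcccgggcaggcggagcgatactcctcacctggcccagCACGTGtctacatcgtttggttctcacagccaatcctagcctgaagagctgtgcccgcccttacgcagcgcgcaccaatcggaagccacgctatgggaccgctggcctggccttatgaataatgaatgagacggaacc
The Per3 window holds the D-box 2 times, the first of them starting 205 bases and the other 158 bases before the start site. The E-box starts 60 bases before the start of Cry1, and 127 and 138 bases before the 2 starts of Tef. None of the 3 motifs was found in the windows of Arntl, Clock or Hlf.

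Targets of the glucocorticoid receptor, which brings the daily corticosterone rhythm and stress to the heart, included some of the genes with the highest fold changes. Zbtb16, a transcriptional repressor, had 128, 125 and 108 CPM in KO vehicle hearts, against 39.4, 14.1 and 24.1 CPM in WT vehicle hearts (log2 fold change 2.22 ± 0.37 (SE), edgeR adjusted p = 0.0153). Fkbp5, the co-chaperone that restrains the receptor, had 92.2, 66.4 and 44.1 CPM in KO vehicle hearts, against 21.3, 12.8 and 26.2 CPM in WT vehicle hearts (log2 fold change 1.75 ± 0.36 (SE), edgeR adjusted p = 0.0302). Hif3a, of the hypoxia-inducible factor family, had 6.01, 4.79 and 4.05 CPM in KO vehicle hearts, against 1.6, 0.933 and 1.83 CPM in WT vehicle hearts (log2 fold change 1.78 ± 0.36 (SE), edgeR adjusted p = 0.0283). In all 3 genes the groups lay fully apart. Pik3r1, the regulatory subunit of phosphoinositide 3-kinase, was called higher as well (log2 1.05, edgeR adjusted p = 0.0302), and Cdkn1a was called lower (log2 -1.36, edgeR adjusted p = 0.0447). In all, 4 of the 20 targets were called higher (20%, against 1.79% of all tested genes) and 1 lower (5%, against 1.09%). Their median log2 fold change was 0.28. None of the 5 calls held without each single library: without WT veh_2, 1 target was called higher, and without WT veh_3 or any KO vehicle library 0 were called. Under DOX the same list had a median of -0.74, and the genotype difference of Hif3a itself differed between the treatments (difference of the log2 fold changes 3.11 ± 0.49 (SE), edgeR adjusted p = 0.0288).

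Several genes of calcium handling and of the cardiac action potential were called higher. Ryr2, the ryanodine receptor that releases calcium from the sarcoplasmic reticulum, had 1286, 1329 and 1367 CPM in KO vehicle hearts, against 849.9, 571 and 750.4 CPM in WT vehicle hearts (log2 fold change 0.87 ± 0.16 (SE), edgeR adjusted p = 0.0217). Slc8a1, the sodium-calcium exchanger NCX1, had 384, 346 and 393 CPM in KO vehicle hearts, against 277, 187 and 215 CPM in WT vehicle hearts (log2 fold change 0.73 ± 0.14 (SE), edgeR adjusted p = 0.0258). Camk2a, a calmodulin-dependent kinase subunit, gave a log2 fold change of 0.59 ± 0.13 (SE) (edgeR adjusted p = 0.0388). In all 3 genes the KO vehicle libraries lay above the WT vehicle libraries, of which WT veh_2 was the lowest. Of 31 calcium handling genes, 3 were called higher (9.68%, against 1.79% of all tested genes) and 0 lower, with a median of 0.24. Kcnh2, which encodes the ERG channel of the rapid delayed rectifier, had 94.5, 98.3 and 87.9 CPM in KO vehicle hearts, against 53.7, 52.2 and 58.7 CPM in WT vehicle hearts (log2 fold change 0.77 ± 0.11 (SE), edgeR adjusted p = 0.00483). Kcnj12, an inward rectifier, and Kcnj3, a subunit of the acetylcholine-gated channel, rose by 0.65 (edgeR adjusted p = 0.0258) and 0.76 (edgeR adjusted p = 0.0302). Kcnj3 had 88.8, 133 and 99 CPM in KO vehicle hearts, against 64.1, 60 and 65.2 CPM in WT vehicle hearts. Its highest library was KO veh_3394, which carried atrial transcripts, and their part in its value was not tested. Of 20 potassium channel genes, 3 were called higher (15.0%, against 1.79% of all tested genes) and 0 lower, with a median of 0.32. Among the calcium and potassium genes the Kcnh2 call alone held without each single library: 0 calcium handling genes and 1 potassium channel gene were called higher without any KO vehicle library or WT veh_2 or veh_3, and 6 and 8 without WT veh_1. With offsets for exon length, an alternative chosen after seeing the data, 3 calcium handling genes were called and the list's median was 0.07.

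In the cyclic nucleotide pathway that PDE10A belongs to, 5 genes were called. Among the cyclases that make cAMP, Adcy9 had 15.7, 14.2 and 18.7 CPM in KO vehicle hearts, against 9.62, 2.52 and 4.96 CPM in WT vehicle hearts (log2 fold change 1.52 ± 0.33 (SE), edgeR adjusted p = 0.0356). Adcy5, the main cyclase isoform of the cardiomyocyte together with Adcy6, had 72.2, 78.7 and 80.3 CPM in KO vehicle hearts, against 56.5, 52.3 and 57.7 CPM in WT vehicle hearts (log2 fold change 0.47 ± 0.10 (SE), edgeR adjusted p = 0.0366). Adcy4 was lower, at 26, 25.4 and 24.7 CPM in KO vehicle hearts, against 40.6, 40.4 and 39.6 CPM in WT vehicle hearts (log2 fold change -0.66 ± 0.11 (SE), edgeR adjusted p = 0.0146). Each of these 3 cyclases separated the groups without overlap. Adora2a, the adenosine receptor that stimulates cyclase, had 5.4, 4.11 and 6.1 CPM in KO vehicle hearts, against 11.7, 10.0 and 10.8 CPM in WT vehicle hearts (log2 fold change -1.06 ± 0.19 (SE), edgeR adjusted p = 0.0199), and Prkar2a, a regulatory subunit of protein kinase A, rose by 0.52 (edgeR adjusted p = 0.0432). In all, 3 of 44 pathway genes tested were called higher (6.82%, against 1.79% of all tested genes) and 2 lower (4.55%, against 1.09%), with a median of 0.06. Each of these 5 calls was lost without each of KO veh_3393, veh_3394 and veh_3395 and WT veh_3 (edgeR adjusted p up to 0.153). Of the 19 phosphodiesterase genes, 2 were called higher (10.5%, against 1.79% of all tested genes) and 0 lower. The 2 were Pde10a and Pde7b (log2 0.89, edgeR adjusted p = 0.0406). The Pde7b call was lost without any KO vehicle library, WT veh_2 or WT veh_3 and with exon-length offsets. Pde4d (0.63, edgeR adjusted p = 0.0547), Pde1c (0.50, 0.0655) and Pde8a (0.52, 0.0883) missed the threshold on the positive side. Pde1a (0.38, 0.348), Pde2a (0.66, 0.568), Pde3a (-0.19, 0.598) and Pde5a (-0.03, 0.948) missed it as well. Nt5c1a, a cytosolic nucleotidase that makes adenosine from AMP, was among the genes with the highest fold changes, with 4.79, 6.72 and 8.28 CPM in KO vehicle hearts, against 2.94, 0.276 and 0.913 CPM in WT vehicle hearts (log2 fold change 2.30 ± 0.51 (SE), edgeR adjusted p = 0.0383). Its call was lost without any KO vehicle library and without WT veh_2 or veh_3.

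Several endothelial markers were called lower. Cldn5, the tight junction protein of endothelium, had 5.06, 7.92 and 6.1 CPM in KO vehicle hearts, against 21.6, 42.1 and 18.6 CPM in WT vehicle hearts (log2 fold change -2.11 ± 0.34 (SE), edgeR adjusted p = 0.0131). Aqp7, a glycerol channel of capillaries and adipocytes, had 10.3, 9.17 and 10.2 CPM in KO vehicle hearts, against 35.9, 21 and 25.9 CPM in WT vehicle hearts (log2 fold change -1.48 ± 0.23 (SE), edgeR adjusted p = 0.0104). Kdr, the main receptor for VEGF, had 125, 107 and 133 CPM in KO vehicle hearts, against 303, 169 and 244 CPM in WT vehicle hearts (log2 fold change -0.97 ± 0.23 (SE), edgeR adjusted p = 0.0447). In all 3 genes each KO vehicle library lay below each WT vehicle library. Fabp4 (log2 -0.89, edgeR adjusted p = 0.0193), a fatty acid carrier of capillaries and adipocytes, Egfl7 (-0.74, 0.0406) and the TGF-beta co-receptor Eng (-0.58, 0.0438) were called lower as well. Thus 6 of 28 endothelial markers (21.4%, against 1.09% of all tested genes) were called lower and 0 higher, the median log2 fold change was -0.38, and the summed level of the list lay between 2331 and 2623 CPM in KO vehicle hearts, against 3166 to 3303 CPM in WT vehicle hearts. In bulk tissue, fewer endothelial cells and less RNA per cell cannot be told apart. Outside the list, Angpt2, the angiopoietin that loosens vessels, was also lower, at 2.09, 2.23 and 2.73 CPM in KO vehicle hearts, against 7.7, 6.22 and 4.72 CPM in WT vehicle hearts (log2 fold change -1.40 ± 0.25 (SE), edgeR adjusted p = 0.0186), a call that was lost without any KO vehicle library. The number of endothelial markers called was 0, 1 and 0 without KO veh_3393, veh_3394 and veh_3395 and 10, 3 and 2 without WT veh_1, veh_2 and veh_3, while the list's median stayed between -0.43 and -0.34. Pericyte and smooth muscle markers (median -0.20) had 0 of 17 called by edgeR, 5 at an unadjusted p below 0.05 and 3 by DESeq2. Fibroblast markers (median -0.12) had 0 of 21, 2 and 0 in the same order. Among all 14757 genes tested, 3844 (26%) had an unadjusted p below 0.05, and DESeq2 called 1682. Of 15 adipocyte markers (median -0.12) 1, Fabp4, was called lower (6.67%, against 1.09% of all tested genes).

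Immediate early genes, which respond to stimulation within minutes, had negative values for the most part. Egr1, a zinc finger factor of this class, had 9.5, 16.6 and 13.4 CPM in KO vehicle hearts, against 28.2, 46 and 64.8 CPM in WT vehicle hearts (log2 fold change -1.81 ± 0.34 (SE), edgeR adjusted p = 0.0217). Jund, an AP-1 subunit, was the other called member (log2 -0.91, edgeR adjusted p = 0.0412). Of 18 tested members 2 were called lower (11.1%, against 1.09% of all tested genes) and 0 higher. Negative values were found in 16 of them and in 7085 of all 14757 genes tested. The list's median was -0.56. Both calls were lost without any of KO veh_3393, veh_3394 and veh_3395 and without WT veh_2 or veh_3.

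Among the remaining genes with the highest fold changes, Hipk2, a kinase that acts on p53, had 25.8, 37.1 and 39.5 CPM in KO vehicle hearts, against 14.9, 4.7 and 5.71 CPM in WT vehicle hearts (log2 fold change 2.03 ± 0.37 (SE), edgeR adjusted p = 0.021). Siglec1, a sialic acid receptor of resident macrophages, had 4.75, 5.81 and 4.4 CPM in KO vehicle hearts, against 1.42, 1.17 and 1.51 CPM in WT vehicle hearts (log2 fold change 1.87 ± 0.35 (SE), edgeR adjusted p = 0.0234). Of 23 macrophage and monocyte markers 0 were called by edgeR, 4 at an unadjusted p below 0.05 and 2 by DESeq2. Among all 14757 genes tested, 3844 (26%) had such an unadjusted p, and DESeq2 called 1682. Pm20d2, a peptidase, had 11.8, 13.6 and 16.1 CPM in KO vehicle hearts, against 7.7, 1.66 and 3.45 CPM in WT vehicle hearts (log2 fold change 1.72 ± 0.37 (SE), edgeR adjusted p = 0.035). For Hipk2 and Pm20d2, as for Nt5c1a, Zbtb16 and Adcy9, WT veh_2 was the lowest of the 6 libraries. The calls of Hipk2, Siglec1 and Pm20d2 were lost without each of WT veh_2 and veh_3 and each KO vehicle library (edgeR adjusted p up to 0.130).

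Among the genes with the lowest fold changes, Spon2, a secreted matrix protein, had 0.456, 0.604 and 0.427 CPM in KO vehicle hearts, against 3.83, 9.19 and 3.25 CPM in WT vehicle hearts (log2 fold change -3.44 ± 0.74 (SE), edgeR adjusted p = 0.0346). Col5a3, a chain of collagen V, had 13.2, 15.6 and 11.1 CPM in KO vehicle hearts, against 46.5, 33.7 and 38.4 CPM in WT vehicle hearts (log2 fold change -1.57 ± 0.20 (SE), edgeR adjusted p = 0.0032), and its call held without each single library. Igfals, the subunit that keeps insulin-like growth factors in serum complexes, had 2.78, 2.11 and 1.32 CPM in KO vehicle hearts, against 4.5, 5.42 and 7.06 CPM in WT vehicle hearts (log2 fold change -1.44 ± 0.35 (SE), edgeR adjusted p = 0.04995). In Spon2 the highest library was WT veh_2, and in Col5a3 it was WT veh_1. Nmrk2, a muscle kinase that makes NAD precursors, was lower as well, at 0.988, 1.92 and 1.28 CPM in KO vehicle hearts, against 4.01, 5.8 and 4.72 CPM in WT vehicle hearts (log2 fold change -1.79 ± 0.38 (SE), edgeR adjusted p = 0.0316). Arhgap18, a GTPase-activating protein, had 7.49, 7.24 and 12.1 CPM in KO vehicle hearts, against 26.4, 22 and 26.9 CPM in WT vehicle hearts (log2 fold change -1.49 ± 0.24 (SE), edgeR adjusted p = 0.0122). In all 5 genes the groups did not overlap. Of 36 extracellular matrix genes listed, 0 were called lower and 1 higher (2.78%, against 1.79% of all tested genes), Timp3, an inhibitor of metalloproteinases (log2 0.81, edgeR adjusted p = 0.0461). The list's median was -0.10. The Timp3 call was lost without any KO vehicle library, WT veh_2 or WT veh_3 and without TMM scaling. The calls of Spon2, Igfals and Nmrk2 were lost without WT veh_2 or veh_3 or any KO vehicle library (edgeR adjusted p up to 0.164), and that of Arhgap18 without WT veh_3, KO veh_3393 or KO veh_3394 (up to 0.0624).

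Among genes of the stressed heart 1 was called. Of 20 tested cardiac stress and fetal genes, 0 were called higher and 1 lower (5%, against 1.09% of all tested genes), Rcan1, a calcineurin regulator (log2 -0.90, edgeR adjusted p = 0.0351). None was called lower without any KO vehicle library, WT veh_2 or WT veh_3, in the fit of 6 libraries or with the title suffix as a covariate. Nppa, which encodes atrial natriuretic peptide, had 87.6, 877 and 79.6 CPM in KO vehicle hearts, against 93.7, 43.9 and 29.6 CPM in WT vehicle hearts (log2 fold change 2.65 ± 0.85 (SE), edgeR adjusted p = 0.0859), and KO veh_3394, the library with atrial transcripts, stood alone. Nppb (-0.99, edgeR adjusted p = 0.126), Myh7 (0.59, 0.504) and Myh6 (0.15, 0.39) missed the threshold. Of 25 sarcomere and Z-disc genes, 1 was called, higher (4%, against 1.79% of all tested genes), Neb, the thin filament ruler nebulin (log2 1.02, edgeR adjusted p = 0.0302). None was called without any KO vehicle library, WT veh_2 or WT veh_3 or with exon-length offsets. Rhobtb1, a BTB domain protein, was higher, at 263, 228 and 198 CPM in KO vehicle hearts, against 98.9, 80.3 and 118 CPM in WT vehicle hearts (log2 fold change 1.21 ± 0.14 (SE), edgeR adjusted p = 0.0018). Gsta3, a glutathione S-transferase, had 14.6, 13.2 and 14.8 CPM in KO vehicle hearts, against 4.14, 6.15 and 4.92 CPM in WT vehicle hearts (log2 fold change 1.48 ± 0.18 (SE), edgeR adjusted p = 0.00281). The lowest KO vehicle library exceeded the highest WT vehicle library in both Rhobtb1 and Gsta3. The magnesium transporter Slc41a3 had 26.5, 21.6 and 19 CPM in KO vehicle hearts, against 55.8, 55.7 and 52.5 CPM in WT vehicle hearts (log2 fold change -1.29 ± 0.17 (SE), edgeR adjusted p = 0.0032). Icosl, a costimulatory ligand for T cells, had 19.3, 16.1 and 14.3 CPM in KO vehicle hearts, against 8.24, 10.4 and 9.72 CPM in WT vehicle hearts (log2 fold change 0.81 ± 0.14 (SE), edgeR adjusted p = 0.0193). Slc41a3 and Icosl separated the groups too, and among these 4 genes the Icosl call alone was lost without single libraries (WT veh_3, KO veh_3393 or KO veh_3394, edgeR adjusted p up to 0.0881).

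Genes for the cytosolic ribosome and for oxidative phosphorylation had negative values almost throughout, and few were called. Of 75 ribosomal protein genes, 7 were called lower (9.33%, against 1.09% of all tested genes) and 0 higher, all 75 had negative values and 64 separated the groups, beside 31.3% of all genes, with a median log2 fold change of -0.57. Rps2, of the small subunit, had 205, 187 and 202 CPM in KO vehicle hearts, against 267, 488 and 339 CPM in WT vehicle hearts (log2 fold change -0.88 ± 0.17 (SE), edgeR adjusted p = 0.0258), and Rpl38, of the large subunit, had 29.7, 30.3 and 27.3 CPM in KO vehicle hearts, against 37.9, 72.8 and 48.7 CPM in WT vehicle hearts (log2 fold change -0.87 ± 0.18 (SE), edgeR adjusted p = 0.0302). Rpl37 (log2 -0.73, edgeR adjusted p = 0.0398), Rps19 (-0.65, 0.0447), Rpl35a (-0.68, 0.0455) and Rpl28 (-0.63, 0.0467) were called as well, as was Rps23 (-0.58, 0.0497). In each of the first 6 genes WT veh_2 was the highest library. Of 76 nuclear genes for oxidative phosphorylation, 1 was called lower (1.32%, against 1.09% of all tested genes), the cytochrome oxidase subunit Cox6a2 (log2 -0.61, edgeR adjusted p = 0.0461), and 0 were called higher. Of the 76, 71 had negative values and 57 separated the groups, and the median was -0.46. An unadjusted p below 0.05 was found for 73 of the 75 ribosomal and 60 of the 76 oxidative phosphorylation genes, beside 26% of all genes. Without WT veh_2 the medians were -0.33 for the ribosomal and -0.27 for the oxidative phosphorylation list, with 2 and 0 members called, and without WT veh_1 they were -0.74 and -0.60, with 73 and 52 called. Without TMM scaling 2 ribosomal genes were called, and without each of KO veh_3393, veh_3394 and veh_3395 and WT veh_3 none.

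Fold changes followed a trend over gene length, and the genes of both lists are short. When tested genes were split by annotated exon length into 5 bins of near equal size, the median log2 fold change was -0.23, -0.07, 0.01, 0.09 and 0.18 from the shortest to the longest bin. Genes called higher had a median exon length of 6471 bases and genes called lower one of 3519 bases, against 4257 bases over all tested genes, 1696.5 bases for the oxidative phosphorylation list and 1830.0 for the ribosomal list. WT veh_2 deviated most from the mean of the 6 vehicle libraries, by a median of 0.28 in the shortest bin and -0.26 in the longest. Without WT veh_2 the medians by bin were -0.11, -0.02, 0.02, 0.06 and 0.10, and between KO DOX and WT DOX hearts all 5 lay between 0.01 and 0.02. With exon-length offsets 497 genes were called, 268 higher and 229 lower, and the ribosomal and oxidative phosphorylation medians were -0.36 and -0.24. Of the 425 genes called, 338 remained called with these offsets, as did 60 of the 63 named ones, the exceptions being Igfals, Adcy5 and Ttpal.

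**Figure D2:**
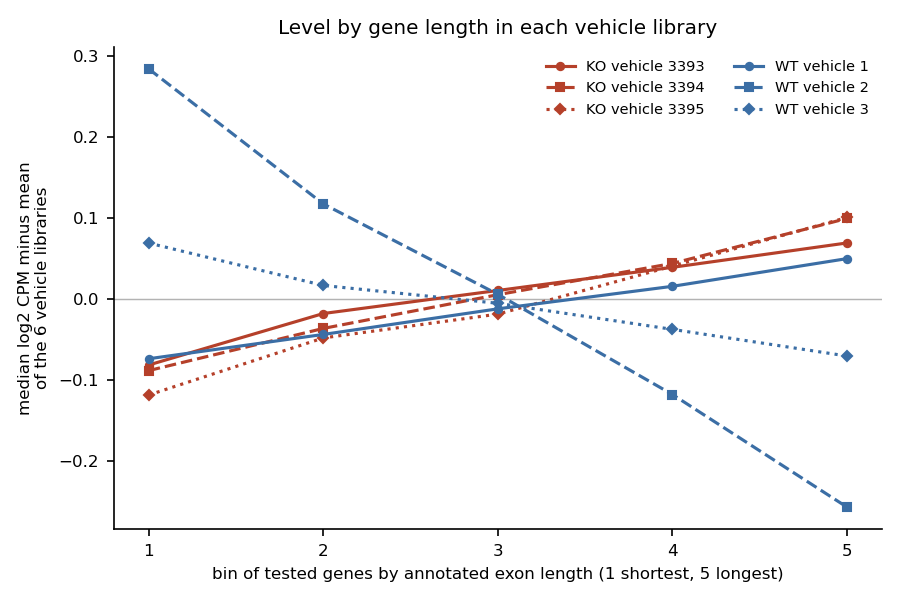
Median log2 CPM of tested genes in each vehicle library, less the mean of the 6 vehicle libraries, by bin of annotated exon length from the shortest (1) to the longest (5). Red lines are KO vehicle and blue lines WT vehicle libraries. WT veh_2 spans 0.28 to -0.26, WT veh_3 slopes the same way, and WT veh_1 slopes as the 3 KO vehicle libraries do.

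Immune lists gave few called genes. All 7 tested MHC class II genes, which present antigen to helper T cells, had negative values with a median of -1.39. In 6 of them the groups did not overlap, beside 31.3% of all genes. However, 0 were called by edgeR (lowest adjusted p = 0.105, for H2-DMa), and 4 had an unadjusted p below 0.05, beside 26% of all genes. DESeq2 called 1 of the 7, beside 1682 of all 14757 genes tested. The summed level of the MHC class II genes lay between 103 and 125 CPM in KO vehicle hearts, against 208 to 438 CPM in WT vehicle hearts. Of 9 tested neutrophil markers 1 was called higher (11.1%, against 1.79% of all tested genes), the chemokine receptor Cxcr2 (log2 3.82, edgeR adjusted p = 0.0302). In 7 of them every KO vehicle library lay above every WT vehicle library, as in 2441 of all 14757 genes tested. The levels of the neutrophil list summed to between 15.1 and 20.9 CPM in KO vehicle hearts, against 7.17 to 8.81 CPM in WT vehicle hearts. The Cxcr2 call rested on 14, 10 and 9 counts in KO vehicle hearts, against 1, 0 and 1 in WT vehicle hearts. It was lost without each of WT veh_2 and veh_3 and each KO vehicle library. Of 32 interferon response genes 1 was called higher (3.1%, against 1.79% of all tested genes), the guanylate-binding protein Gbp5 (log2 0.91, edgeR adjusted p = 0.0302). Of 22 acute phase and cytokine genes 1 was called higher (4.55%, against 1.79% of all tested genes), the monocyte chemokine Ccl2 (log2 1.30, edgeR adjusted p = 0.0482). Without any KO vehicle library, WT veh_2 or WT veh_3, 0 members of either list were called, and the Ccl2 call was also lost without TMM scaling and with the title suffix as a covariate. EdgeR called 0 of 28 cell cycle genes (median -0.39) and 0 of 27 genes of glucose uptake and glycolysis. It called 0 of 8 mitochondrially encoded genes (median 0.18). In that order these lists had 7, 6 and 0 genes at an unadjusted p below 0.05, beside 26% of all genes. DESeq2 called 0, 3 and 0 in the same order, beside 1682 of all 14757 genes tested. Of 36 p53 targets only Cdkn1a was called, lower (2.78%, against 1.09% of all tested genes).

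**Figure D3:**
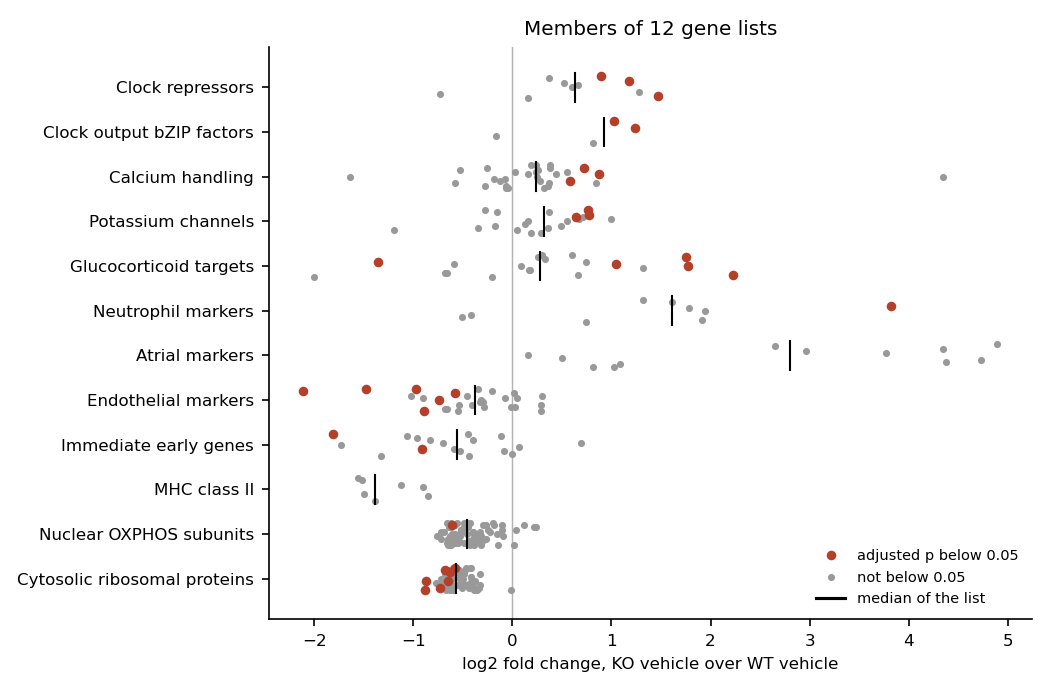
Log2 fold change of KO vehicle over WT vehicle for the tested members of 12 gene lists, with 1 point per gene, red where the adjusted p is below 0.05, and a black bar at the list's median. Ribosomal protein genes form a tight group around -0.57, clock repressors lie around 0.63, and atrial markers reach furthest to the right with no called gene.

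Some transcripts known from the kidney were higher in the libraries labelled KO. The gene with the highest fold change among those named by rule was Kap, the kidney androgen-regulated protein of the proximal tubule, with 44, 370 and 98 counts in KO veh_3393, veh_3394 and veh_3395, against 0, 2 and 2 counts in WT veh_1, veh_2 and veh_3 (log2 fold change 6.87 ± 1.05 (SE), edgeR adjusted p = 0.0101). A list of 20 kidney markers was then drawn up after these values had been seen. Slc34a1, the phosphate transporter of the proximal tubule, had 26, 156 and 26 counts in KO vehicle hearts, against 0, 1 and 0 counts in WT vehicle hearts. Acsm2, an acyl-CoA synthetase of the kidney, had 22, 115 and 18 counts in KO vehicle hearts, against 0, 0 and 1 in WT vehicle hearts. Slc27a2, a fatty acid transporter of kidney and liver, had 13, 81 and 20 counts in KO vehicle hearts and none in WT vehicle hearts, which makes it at least 12.4-fold higher with a floor of 3 counts per library. Each of these genes showed the same order, with KO veh_3394 highest and all WT vehicle libraries at or near 0. Of the 20 markers 9 were tested, and 5 were called higher (55.6%, against 1.79% of all tested genes) and 0 lower. In raw counts 13 of the 20, untested ones among them, had each KO vehicle count above each WT vehicle count. In CPM 6 of the 9 tested markers showed that order, as did 2441 of all 14757 genes tested. The 5 had 0 to 8 counts over the WT vehicle hearts, and the list was chosen with KO values in view, so these numbers are a description only. Over all 20 markers the counts summed to 239, 1436 and 313 in KO vehicle hearts, against 74, 284 and 176 in WT vehicle hearts, and KO veh_3393 thus lay below WT veh_2. Of the counts in WT vehicle hearts, 282 came from Cyp2e1 and 207 from Cubn, which had 290 and 230 counts in KO vehicle hearts. The 20 markers summed to 637, 169 and 263 in KO DOX hearts, against 100, 146 and 242 in WT DOX hearts, and the groups overlapped. The podocyte marker Nphs1 was at 0 in 5 of the 6 vehicle libraries. The Kap call was lost without WT veh_3 (edgeR adjusted p = 0.0566). The part of these transcripts in other results was not tested.

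**Figure D4:**
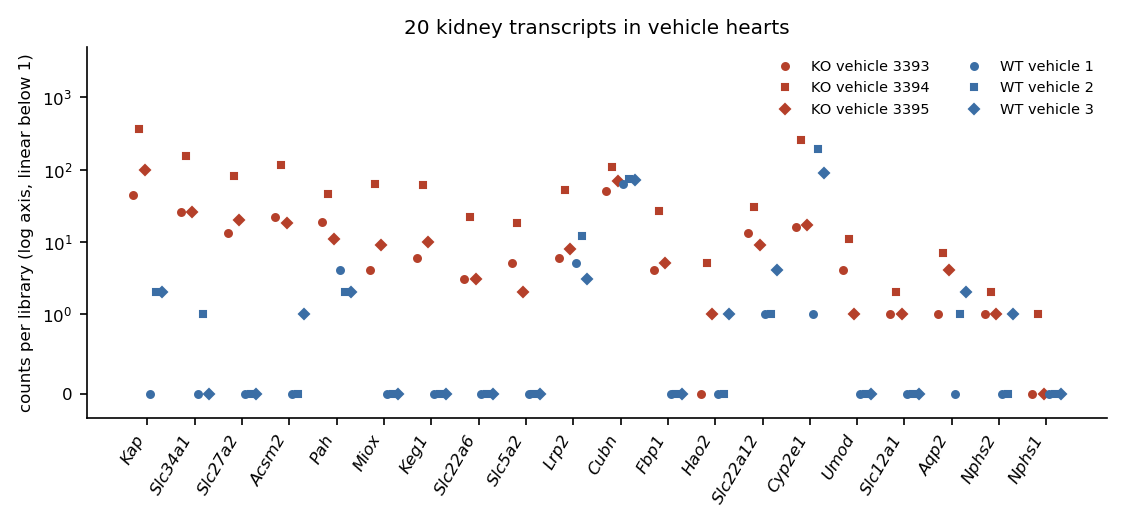
Counts of 20 kidney transcripts in each vehicle library on a log axis that is linear below 1, KO vehicle in red on the left and WT vehicle in blue on the right of each gene, with 1 symbol per library. KO veh_3394 is highest for each gene, reaching 370 counts for Kap, and the WT vehicle libraries reach 192 counts for Cyp2e1 and 73 for Cubn.

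Atrial markers were high in 1 of the 6 vehicle libraries. Myl7 was at 0.228, 542 and 0.0853 CPM in KO vehicle hearts, against 0.0890, 11.8 and 14 CPM in WT vehicle hearts, and the groups overlapped. Of 12 tested atrial markers 0 were called by edgeR. An unadjusted p below 0.05 was found for 5, beside 26% of all genes, and DESeq2 called 1, beside 1682 of all 14757. All 12 had positive values, with a median log2 fold change of 2.81. The direction rested on 1 library: without KO veh_3394 the list's median was -0.46, and without KO veh_3394, WT veh_2 and KO Dox_18 it was -0.13. The summed level of the list was 3874 CPM in KO veh_3394 and lay between 493 and 732 CPM in the other 5 vehicle libraries, and among the DOX libraries KO Dox_18 was the highest, at 3023 CPM.

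The stretch of chromosome 17 around Pde10a held called genes in both directions. Within 20 Mb on either side of Pde10a (chr17:8525372-8986648, GRCm38), 25 of 257 tested genes (9.73%) were called, 10 higher and 15 lower, against 13 of 451 (2.88%) on the rest of the chromosome and 382 of 13977 (2.73%) on other chromosomes. Rsph3b, a radial spoke protein at chr17:6904413-6948682, had 5.59, 7.28 and 6.57 CPM in KO vehicle hearts, against 11.8, 11 and 11.3 CPM in WT vehicle hearts (log2 fold change -0.81 ± 0.13 (SE), edgeR adjusted p = 0.0131). Serac1, a lipid remodelling enzyme at chr17:6042196-6079741, gave a log2 fold change of 0.92 ± 0.22 (SE) (edgeR adjusted p = 0.0461), a call that did not hold without WT veh_2 or veh_3 or any KO vehicle library (edgeR adjusted p up to 0.163). The Rsph3b call was lost without KO veh_3393, KO veh_3395 or WT veh_3 (edgeR adjusted p up to 0.0635). Of the 25 called genes in this stretch, 24 had the same sign between KO DOX and WT DOX hearts, and 5 were called there too. By comparison, 10 of the 13 called on the rest of chromosome 17 had the same sign. The flanking stretch also holds Atp6v0c, Fkbp5, Igfals and Rps2.

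Some genes were close to all or none between the groups, and 2 of these, Atp6v0c-ps2 and Tmem181c-ps, are pseudogenes of called genes. Atp6v0c, the proton channel subunit of the vacuolar ATPase at chr17:24163866-24169702, had 7.03, 7.51 and 6.06 CPM in KO vehicle hearts, against 40.1, 33.8 and 39 CPM in WT vehicle hearts (log2 fold change -2.45 ± 0.38 (SE), edgeR adjusted p = 0.0115), a call lost without any KO vehicle library. Its processed pseudogene Atp6v0c-ps2 at chr6:37806086-37806550 was chosen, like Tmem181c-ps, Gm36684, Ifi208 and 6430562O15Rik, after its values were seen. It had 20.4, 23.5 and 19.9 CPM in KO vehicle hearts, against 0.0445, 0.0691 and 0 CPM in WT vehicle hearts. With 1, 2 and 0 counts in WT vehicle hearts, Atp6v0c-ps2 passed the count filter through the KO hearts alone. Tmem181c-ps and Gm36684 passed it likewise, and Ifi208 through the WT hearts alone. The values of these genes are a description only. In GENCODE M21 (GRCm38) the 465 bases of the pseudogene match the coding sequence of Atp6v0c at all but 1 base, T111C (Atp6v0c first, counted from the A of its start codon). The first 120 coding bases of both are shown because they hold that only difference, which is in capitals:
Atp6v0c: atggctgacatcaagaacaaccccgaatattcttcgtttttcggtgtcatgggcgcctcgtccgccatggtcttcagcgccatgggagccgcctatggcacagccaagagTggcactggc
Atp6v0c-ps2: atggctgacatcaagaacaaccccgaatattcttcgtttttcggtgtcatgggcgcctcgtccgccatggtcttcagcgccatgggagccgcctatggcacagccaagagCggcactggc
How reads that match both places were counted is not given in the sources used here, so the split of reads between the 2 is uncertain. The level of the gene was lower and that of the copy higher in each KO vehicle library than in each WT vehicle library. Under DOX, Atp6v0c had 5.71, 23.4 and 24.9 CPM in KO Dox_18, Dox_19 and Dox_20, against 46.8, 45.4 and 52.1 CPM in WT Dox_21, Dox_22 and Dox_24, and the pseudogene had 21.4, 11.9 and 12.2 CPM in the KO DOX hearts, against 0.108, 0.0728 and 0.144 CPM in the WT DOX hearts. KO Dox_18 thus resembled the KO vehicle hearts, while Dox_19 and Dox_20 lay between them and the WT hearts. Tmem181a, a transmembrane protein gene at chr17:6256860-6308314, had 2.13, 2.19 and 2.09 CPM in KO vehicle hearts, against 6.14, 6.36 and 6.27 CPM in WT vehicle hearts (log2 fold change -1.55 ± 0.14 (SE), edgeR adjusted p = 0.000276). Its pseudogene Tmem181c-ps matches the Tmem181a transcript at 95.9% of 1386 aligned bases, with 9 different bases and 48 in gaps. The split of reads between Tmem181a and this copy is therefore uncertain as well. Tmem181c-ps had 145 counts over the KO vehicle hearts and 0 over the WT vehicle hearts, at least 16.2-fold higher with 3 counts per library as the floor. The predicted gene Gm36684 likewise had 108 counts over the KO vehicle hearts and 0 over the WT vehicle hearts (at least 11.8-fold higher). In the other direction, Ifi208, of the interferon-inducible p200 family, had 0 counts over the KO vehicle hearts and 121 over the WT vehicle hearts (at least 13.5-fold lower), and 6430562O15Rik had 0 counts over the KO vehicle hearts and 195 over the WT vehicle hearts (at least 21.5-fold lower). Under DOX, 6430562O15Rik had 0.591, 0.439 and 1.77 CPM in KO hearts, against 1.73, 1.42 and 0.806 CPM in WT hearts, with overlap (edgeR adjusted p = 0.675), and its genotype difference differed between the treatments (edgeR adjusted p = 0.0312). Wdfy1, an endosomal adaptor, had 23.8, 25.4 and 26.8 CPM in KO vehicle hearts, against 9.71, 7.94 and 9.28 CPM in WT vehicle hearts (log2 fold change 1.5 ± 0.11 (SE), edgeR adjusted p = 4.65e-05). Nnt, the mitochondrial transhydrogenase that carries a deletion in C57BL/6J mice but not in other C57BL/6 substrains, had 1223, 994 and 1156 CPM in KO vehicle hearts, against 515, 352 and 428 CPM in WT vehicle hearts (log2 fold change 1.38 ± 0.15 (SE), edgeR adjusted p = 0.000947). Of 7 tested genes known to vary between C57BL/6 substrains, 2 were called higher (28.6%, against 1.79% of all tested genes), Wdfy1 and Nnt, and 0 lower.

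The DOX-treated hearts, which share no library with the vehicle hearts, gave a second reading of the same genotype labels. Both contrasts came from 1 fit of all 12 libraries and share each gene's estimate of spread, so their calls are not independent. A fit of the 6 DOX libraries alone called 5 genes. Between KO DOX and WT DOX hearts 62 genes (0.42%) were called, and 18 genes were called in both treatments, which is 4.24% of the 425 called under vehicle and 29.0% of the 62 called under DOX. Of the 18, 17 had the same direction. Among them, Atp6v0c-ps2, Tmem181c-ps, Gm36684 and Gm9825 passed the count filter through KO libraries alone. Ifi208 and Lrmda passed it through WT libraries alone. Gm9825 had at most 12 counts in a WT library, and Lrmda at most 11 in a KO library. For these genes the shared call is a description only. Named because they were called in both, Pde10a, Atp6v0c-ps2, Tmem181c-ps, Gm36684, Gm9825, Gm49980, 9530082P21Rik, D16Ertd472e, Wdfy1, Hlf, Hdac11 and Gpr183 were higher in both, and Tmem181a, Rsph3b, Ifi208, Lrmda and Cdkn1a were lower in both. Ttpal was higher in KO vehicle hearts (log2 0.44) and lower in KO DOX hearts (log2 -0.53). Of the 425 genes called under vehicle, 313 (73.6%) had the same sign under DOX, against 55% of all tested genes. Hlf had 41.9, 30.0 and 33.9 CPM in KO DOX hearts, against 18.3, 14 and 20.4 CPM in WT DOX hearts (log2 fold change 1.00 ± 0.16 (SE), edgeR adjusted p = 0.0268). Arntl had 4.02, 8.27 and 3.12 CPM in KO DOX hearts, against 8.09, 15.7 and 9.7 CPM in WT DOX hearts, and missed the threshold (log2 fold change -1.11 ± 0.36 (SE), edgeR adjusted p = 0.181). Wee1 gave 0.30 under DOX (edgeR adjusted p = 0.396), Nnt 0.30 (0.334) and Zbtb16 0.30 (0.738). Cdkn1a had 27.9, 31.4 and 19.8 CPM in KO DOX hearts, against 87.4, 180.1 and 118 CPM in WT DOX hearts (log2 fold change -2.28 ± 0.32 (SE), edgeR adjusted p = 0.0155), while with vehicle it had 24.7, 15 and 12.2 CPM in KO hearts, against 30.5, 49.3 and 53.6 CPM in WT hearts. The endothelial list had a median of 0.02 under DOX, the ribosomal list -0.28, and the clock repressors 0.38. Among the repressors, Nr1d1 (log2 1.16 under DOX), Per1 (-0.60) and Cry1 (-0.16) had the opposite sign to vehicle. The other listed repressors kept their sign. The difference between the treatments missed the threshold for Nr1d1, Per1 and Cry1 (edgeR adjusted p = 0.0520, 0.130 and 0.0991). The number of genes called under DOX was 35, 17 and 8 without KO Dox_18, Dox_19 and Dox_20, and 727, 12 and 47 without WT Dox_21, Dox_22 and Dox_24.

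**Figure D5:**
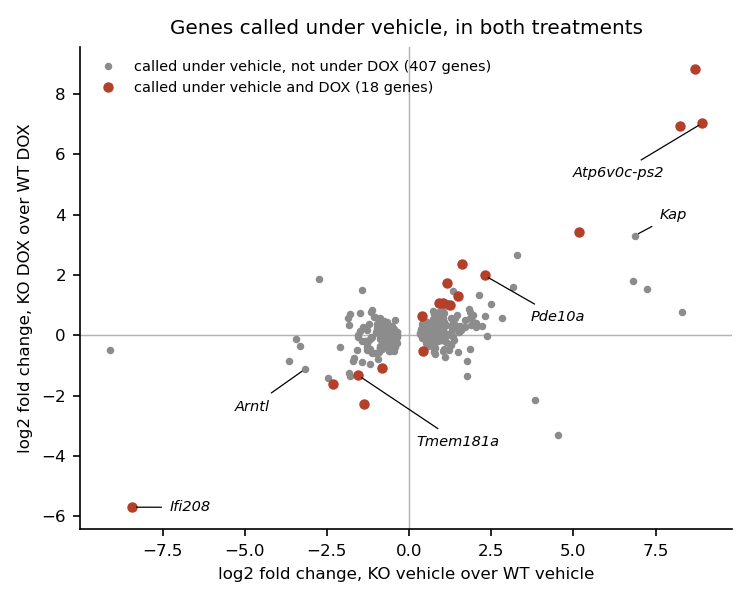
Log2 fold change of the 425 genes called under vehicle, for KO vehicle over WT vehicle on the x axis and for KO DOX over WT DOX on the y axis, with 1 point per gene and the 18 genes called in both treatments in red. The 2 axes share no library. Of the 18, 17 have the same sign on both axes, as do 313 of all 425 genes.

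The test of the difference between the 2 genotype contrasts called 31 genes (0.21%), of which 21 were among the 425 called under vehicle. Rhobtb1 had 134, 136 and 127 CPM in KO DOX hearts, against 173, 188 and 199 CPM in WT DOX hearts, so that it was lower there, whereas it was higher in KO vehicle hearts (difference of the log2 fold changes 1.71 ± 0.20 (SE), edgeR adjusted p = 0.0152). Aqp7 had 12, 17.5 and 16.7 CPM in KO DOX hearts, against 8.2, 12.3 and 7.4 CPM in WT DOX hearts (difference -2.21 ± 0.32 (SE), edgeR adjusted p = 0.0288). Both genes thus had opposite signs in the 2 treatments. The number of genes called for this difference was 2, 3 and 2 without KO veh_3393, veh_3394 and veh_3395, 52, 8 and 1 without WT veh_1, veh_2 and veh_3, 72, 8 and 0 without KO Dox_18, Dox_19 and Dox_20, and 515, 3 and 6 without WT Dox_21, Dox_22 and Dox_24.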

How the data were processed

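Polyadenylated RNA of mouse hearts was sequenced in 12 libraries, 3 in each of 4 groups, on a NextSeq 550 after a stranded mRNA kit, per the labels' protocols. The deposited values are raw read counts per gene symbol, 1 table per library. The submitters' processing notes name featureCounts from Subread 1.6.4, the aligner STAR 2.7.0f and the trimmer fastp 0.20.0. Genome build, annotation, strand setting and treatment of multi-mapping reads: not given in the sources used here. The counts were tested with edgeR 4.0.16 (R 4.3.3): genes were kept by filterByExpr with a minimum count of 10 (14757 of 55453 symbols), libraries were scaled by TMM, and the quasi-likelihood F test was run over all 12 libraries with 1 mean per group and Benjamini-Hochberg adjustment at 0.05. CPM values are scaled by TMM factors. Gene positions and exon lengths came from GENCODE M21 on GRCm38, matched by symbol (98.4% of symbols), and alignments used Biopython 1.88. The script was checked on simulated counts. The 6 vehicle libraries held 23918499 to 27515055 counts. Floors of 3 counts per library cover counting error only, while each SE comes from the quasi-likelihood F test and includes the spread between mice.

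Genes were named by a rule: Pde10a, the 12 highest and 12 lowest fold changes among called genes with no overlap between groups and a mean log2 CPM of at least 1, up to 6 called members of each list with at least 3 called, all members of 3 clock lists, 15 further genes, and 6 genes for the difference between treatments. Of the genes this rule takes, 2 are not reported here. The genes, lists and rule were chosen with earlier results of these data known. Called members of lists with fewer than 3 such genes, and the kidney list, were named after their values were seen. Alternatives were other scaling and filters, a covariate for the title suffix whose meaning is not given, the fit of 6 libraries, each library left out, DESeq2 1.42.0 and limma 3.58.1 (voom with quality weights). Exon-length offsets and leaving out KO veh_3394, WT veh_2 and KO Dox_18 together were added after seeing the data. An inhibitor that the protocol describes labels none of the libraries analysed here.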

Additional observations from a re-analysis of the deposited data

Results flagged for a closer look

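For 9 genes taken by the naming rule and for Cxcr2 and 6430562O15Rik, the genotype difference under vehicle differed from that under DOX by the test of the difference itself, and each is given as the log2 fold change of KO vehicle over WT vehicle less that of KO DOX over WT DOX, with edgeR's adjusted p. Hif3a differed by 3.11 ± 0.49 (SE), with an edgeR adjusted p of 0.0288, and stood at 2.52, 3.84 and 1.7 CPM in KO DOX hearts, against 4.35, 8.99 and 7.03 CPM in WT DOX hearts. Gsta3, the glutathione S-transferase, differed by 2.04 ± 0.25 (SE) (edgeR adjusted p = 0.0152), with 8.31, 8.56 and 8.48 CPM in KO DOX hearts, against 9.06, 13.4 and 14.9 CPM in WT DOX hearts. Ifi205, of the interferon-inducible p200 family, differed by 1.84 ± 0.27 (SE) (edgeR adjusted p = 0.0288) and had 25.5, 20.9 and 18.8 CPM in KO vehicle hearts, against 9.66, 8.01 and 12.7 CPM in WT vehicle hearts. Rhobtb1 differed by 1.71 ± 0.20 (SE) (edgeR adjusted p = 0.0152) and Ttpal, a tocopherol transfer protein relative, by 0.96 ± 0.14 (SE) (edgeR adjusted p = 0.0288). In the negative direction, Aqp7 differed by -2.21 ± 0.32 (SE) (edgeR adjusted p = 0.0288), Adora2a by -1.66 ± 0.27 (SE) (edgeR adjusted p = 0.0341) and Col5a3 by -1.57 ± 0.28 (SE) (edgeR adjusted p = 0.0481). Flt3l, the growth factor of dendritic cells, differed by -1.30 ± 0.19 (SE) (edgeR adjusted p = 0.0288), with 5.06, 5.4 and 4.91 CPM in KO vehicle hearts, against 6.99, 8.05 and 6.31 CPM in WT vehicle hearts, and it was not called under vehicle alone (edgeR adjusted p = 0.0675). Cxcr2, the neutrophil chemokine receptor, differed by 5.98 ± 0.93 (SE) (edgeR adjusted p = 0.0288), with 0.158, 0.293 and 0.27 CPM in KO DOX hearts, against 0.431, 1.24 and 1.58 CPM in WT DOX hearts. Its counts in WT vehicle hearts were only 1, 0 and 1. 6430562O15Rik differed by -8.61 ± 1.27 (SE) (edgeR adjusted p = 0.0312), a fitted value that depends on the prior count because all KO vehicle hearts were at 0.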

How the results depend on the processing

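Under vehicle, the 425 genes called became 2088 with no count filter, 211 with the title suffix as a covariate, 222 in a fit of the 6 vehicle libraries alone, 1682 with DESeq2, 5186 with limma-voom and 39 without KO veh_3394, WT veh_2 and KO Dox_18 together, and lay between 42 and 2670 when 1 vehicle library was left out. Under DOX, the 62 genes called became 1152 with no filter, 5 in a fit of the 6 DOX libraries, 473 with DESeq2 and 990 with limma-voom, and lay between 8 and 727 with 1 DOX library left out. For the difference between the treatments, the 31 genes became 51 without TMM scaling, 1093 with no filter, 373 with DESeq2 and 2048 with limma-voom, and lay between 0 and 515 with 1 library left out. The cause of these shifts was not tested. Counts under the other scaling, filter and exon-length settings were within 1.5 times the reported ones.

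Among the 88 named genes under vehicle, log2 fold changes changed sign only for genes that missed the threshold. Arntl2 gave 0.23 with limma-voom and -0.21 to 0.23 with 1 library left out. Rorb gave -0.64 with limma-voom, -0.17 with exon-length offsets, -0.61 without the 3 libraries and -0.47 to 0.52 with 1 left out. Nfil3 gave 0.0074 with exon-length offsets, 0.016 without the 3 libraries and -0.29 to 0.035 with 1 left out. Pde5a gave 0.012 with the title suffix and -0.15 to 0.12 with 1 left out, and Myh7 gave -0.16 without the 3 libraries. No paired analysis was possible because the mouse numbers differ between the groups. With 3 mice in each group, genes with few counts, such as most kidney transcripts, were left out by the count filter.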
